A study of Meleagris gallopavo with 12 samples.

Results

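The immune and leukocyte genes of the premammillary nucleus (PMM), which lies in the caudal hypothalamus, were examined in turkey hens across 3 photoperiodic states. They were the 136 of 20460 chicken oligonucleotide probes whose annotation held ITGB2 or named a complement component, a major histocompatibility antigen, an interferon, a chemokine, a toll-like receptor or an interleukin. The rule reads annotation text, with ITGB2 admitted by its own symbol, and it was written with earlier results of these data known. The probes carried 126 of the 11615 symbols on the array, of which 29 were locus numbers, and 10 genes had 2 probes each. The tissue came from long-day photorefractory hens (LDPR), which had been held on long days through a whole reproductive cycle and moult, from long-day photosensitive hens (LDPS), given 16 h of light and 8 h of dark for 10 days, and from short-day photosensitive hens (SDPS), kept on 6 h of light and 18 h of dark. Each group had 4 samples, all adult females, and each sample was a pool of PMM tissue from 6 hens. A pair of pools from different groups shared each of 6 two-colour arrays, so that every pair of groups met directly on 2 arrays, once in each dye orientation.

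The brain's resident immune cells are microglia, which are macrophages of the nervous tissue, and blood leukocytes enter in small numbers through the vessels and meninges. Complement is a cascade of plasma proteins that tags cells and can pierce their membranes, and its early factors are also made by glia. Interferons, interleukins and chemokines are the secreted signals that these cells use to alert, activate and attract each other, and several are also read by neurons. ITGB2 encodes the beta chain that leukocyte integrins share, and in mammalian brain it is a microglial and leukocyte transcript.

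Of the 136 probes, 114 were present on at least 5 of the 6 arrays and were tested, as were 18012 of all 20460. Of the 136, 102 were brighter than the 95th percentile of empty spots in all 12 channels (75%), against 77.9% of all probes, and of the 114 tested, 101 were (88.6%), against 88.1%. Detection differed by role. All 15 probes for interferon regulatory factors and interferon-induced genes were tested, as were 14 of 15 complement probes, but 6 of 13 chemokine receptors were. The 22 probes not tested included C3AR1, IFNG, CCR8, CCR9, XCR1, TLR2, TLR7, IL5, IL21, IL22RA1 and both IL7R probes, which gives no statement on whether those genes are expressed, since turkey RNA was read with chicken sequence. The pools stood between 91.6% and 96.6% of chicken probes above the empty-spot level, except LDPR pool 2, which had 79.3% (77.2% of the immune probes, against 92.6% to 97.1% in the other pools). Its array also held SDPS pool 4. All 9 tested neuron markers and all 9 tested astrocyte and tanycyte markers were above the empty-spot level in all 12 channels. So were all 5 tested B cell markers and all 5 tested heterophil and granulocyte markers. With 88.1% of all tested probes passing, this does not identify the tissue. Among microglia and macrophage markers, 10 of 26 were tested and 8 of these were above the empty-spot level in all 12.

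In LDPS hens against SDPS hens, the comparison of the first 10 long days with short days, no immune probe passed Benjamini-Hochberg adjustment in limma (adjusted p under 0.05), and neither did any of the 18012 probes (0%). ITGB2, the interleukin 17 ligand IL17A and an interleukin 3 receptor beta-like subunit had the highest values. The log2 fold changes of the 114 ran between -0.26 and 0.60 with a median of 0.00, against -0.01 over all probes. At an unadjusted p under 0.05 there were 8 (7.02%, against 4.33% of all probes), all 8 of them higher in LDPS (3.03% of all probes were) and 0 lower (1.3%). At an unadjusted p under 0.01 there were 3 (2.63%, against 0.916% of all probes). ITGB2, admitted by its own symbol with earlier results known, is in both counts, as it is in those of LDPR against LDPS. These shares are therefore partly set by the rule. The 8 were ITGB2, IL3R beta-like, IL17A, C8 alpha-like, IL23R, CX3CL1, IL10RA and IL17RD. This split differed when a direct array was left out: 3 were higher and 3 lower without the array shared by LDPS pool 2 and SDPS pool 2, where 9.29% of all probes reached that p, and 4 were higher and 2 lower without the array shared by the pools numbered 1, where 3.86% did.

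In LDPR hens against LDPS hens, the comparison of refractory with stimulated birds, 0 immune probes passed adjustment in limma, against 3 of 18012 probes (0.0167%). The smallest adjusted p, 0.148, belonged to a complement C8 alpha-like gene. At an unadjusted p under 0.05 there were 17 (14.9%, against 13.9% of all probes), of which 13 were lower in LDPR (11.4%, against 8.93%) and 4 were higher (3.51%, against 4.94%). This split moved with the processing. It was 11 lower and 7 higher with all spots kept (11.2% of all probes reached that p). In the authors' deposited log2 values it was 9 lower and 8 higher (16.3%), and with median centring 18 lower and 3 higher (13.9%). At an unadjusted p under 0.01 there were 9 (7.89%, against 4.19%). The values ran between -0.76 and 0.34, and their median was -0.02, against -0.01 over all probes. Fitting each channel separately with the array as a block gave 6 calls among the 114, beside 557 among all probes (3.09%): C8 alpha-like, ITGB2, CX3CL1, IRF4 and IL17RD lower and BF2 higher, with adjusted p from 0.00911 to 0.0482.

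In LDPR hens against SDPS hens, the comparison of refractory birds with birds not yet stimulated, 0 immune probes and 0 of all probes passed adjustment in limma (0%). At an unadjusted p under 0.05 there were 11 (9.65%, against 9.37% of all probes), 5 higher (4.39%, against 3.48%) and 6 lower (5.26%, against 5.89%). At an unadjusted p under 0.01 there were 3 (2.63%, against 2.35%). The values ran between -0.42 and 0.55 with a median of -0.01, as over all probes, and the smallest adjusted p was 0.375. A limma F test over the 3 groups called 0 of the 114 and 2 of 18012 probes (0.0111%), with 14 immune probes (12.3%) and 10.7% of all probes at an unadjusted p under 0.05. The 3 comparisons use the same 12 pools, so their values are not independent.

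**Figure D1:**
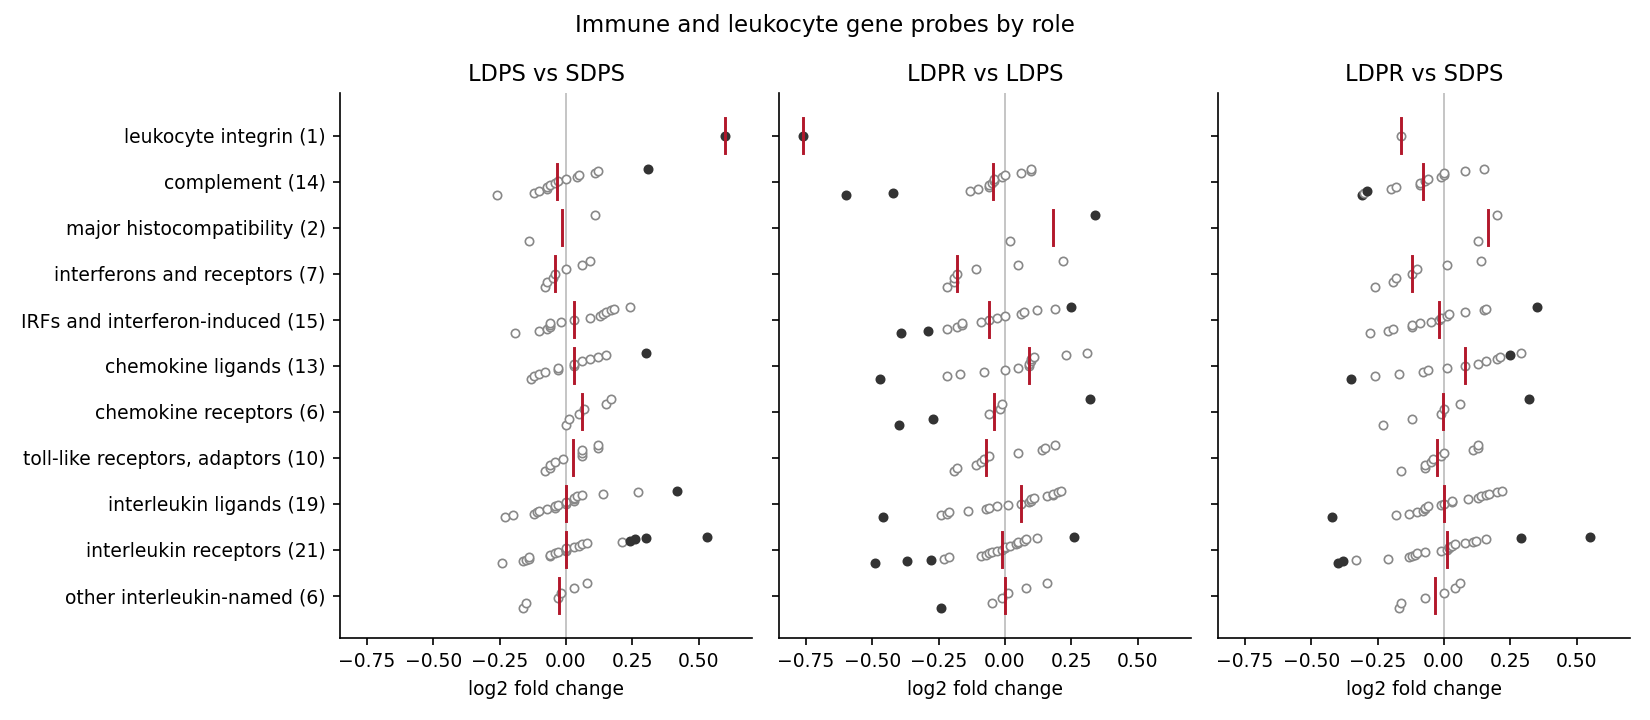
Log2 fold change (horizontal axis) of the 114 tested immune and leukocyte gene probes in 3 comparisons, by role, with the number of probes in brackets. Filled points have an unadjusted p under 0.05, none has an adjusted p under 0.05, and red bars are medians; most probes lie within 0.25 of 0, with ITGB2 at 0.60 and -0.76 in the first and second panels.

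The precision of these comparisons was moderate. The median standard error of an immune probe's log2 fold change was 0.11, and the median half-width of its 95% interval was 0.25, the same as over all probes. In LDPS against SDPS and in LDPR against SDPS the interval of all 114 lay within 1 log2 unit of 0, and in LDPR against LDPS it did for 113, ITGB2 being the exception. Within a group, the standard deviation of an immune probe's level over the 4 pools had a median of 0.29 in LDPR, 0.26 in LDPS and 0.26 in SDPS. A level also carries the spot signal that the pair of pools on an array share (estimated correlation 0.826). These spreads, and the overlap of levels between groups, therefore include differences between arrays.

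ITGB2 had a level, in normalised log2 intensity, of 7.65, 7.58, 7.48 and 7.48 in the LDPR pools, 8.28, 8.52, 7.79 and 8.43 in the LDPS pools, and 7.79, 7.54, 7.64 and 8.16 in the SDPS pools. The LDPR pools lay close together and all below the LDPS pools, whereas the SDPS pools overlapped both other groups. In LDPR against LDPS the fitted log2 fold change was -0.76 (SE 0.16, 95% interval -1.12 to -0.39), a ratio of 0.591, with an unadjusted limma p of 0.000975 and an adjusted p of 0.151. The array of the pair numbered 3 gave a log2 ratio of -0.31 and the array of the pair numbered 4 gave -0.94. Direct ratios, here and below, are log2 ratios on single arrays that held both groups. With 1 array left out the fitted value ran from -0.98 to -0.59. The value of -0.98 came without the pair numbered 3, whose array was quantified on a different date from the rest. In LDPS against SDPS the fitted value was 0.60 (SE 0.16, limma adjusted p = 1), with 0.49 and 0.98 on the direct arrays. Without the array shared by LDPS pool 2 and SDPS pool 2 it was 0.27. In LDPR against SDPS it was -0.16 (SE 0.16, limma adjusted p = 0.791), and it was 0.05 without the array shared by LDPR pool 2 and SDPS pool 4. Levels that did not overlap in LDPR against LDPS were found for 4 of the 104 immune probes measured in every pool (3.85%), all 4 lower, against 1.66% of all probes lower and 0.49% higher. Besides ITGB2, which the rule admitted by its own symbol, they were the brighter probe for CX3CL1, the dimmer probe for IFNA and the IFNB probe. The brighter IFNA probe overlapped, with a mean of 12.97 in both LDPR and LDPS.

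Red blood cell genes had values in the same direction as ITGB2 in LDPS against SDPS and in LDPR against LDPS. All 5 tested genes of that list were higher in LDPS than in SDPS, with a median of 0.23 and values of 0.66 for HBA1 and 0.71 for HBG2, which encode globins. All 5 were lower in LDPR than in LDPS, with a median of -0.19 and values of -0.99 for HBA1 (limma adjusted p = 0.11) and -0.80 for HBG2 (limma adjusted p = 0.146). None of these values passed the adjusted threshold. The log2 of the list's summed intensity ran between 12.19 and 12.67 in the LDPR pools, between 12.73 and 13.79 in the LDPS pools, and between 12.76 and 12.91 in the SDPS pools. The direction shared with ITGB2 was not particular to red blood cell genes. The 4 tested oligodendrocyte genes had medians of 0.07 in LDPS against SDPS and -0.19 in LDPR against LDPS. The 9 tested astrocyte and tanycyte genes had medians of -0.25 and 0.08 in those comparisons. The part of the red blood cell genes in the ITGB2 result was not tested. In pooled tissue, fewer cells of a type and less RNA per cell cannot be told apart.

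Other leukocyte marker lists had medians near 0. The 10 tested microglia and macrophage genes had medians of 0.05 in LDPS against SDPS, -0.04 in LDPR against LDPS and 0.05 in LDPR against SDPS, with 0 called in any of the 3. PTPRC, the pan-leukocyte surface phosphatase CD45, had values of -0.08, -0.28 and -0.36 in that order of comparisons. SPI1, a myeloid transcription factor, had -0.05, 0.08 and 0.03. In LDPR pool 2 the PTPRC level was 5.25, against 6.42 to 7.18 in the other LDPR pools. On the arrays that LDPR shared with LDPS, PTPRC had 6.61 against 6.54 and 7.18 against 7.18. In LDPS against SDPS, HCLS1 (0.27) and LCP1 (0.25), both cytoskeletal proteins of blood cells, reached an unadjusted p under 0.05. Their values in LDPR against LDPS were -0.11 and -0.16. The 7 tested T and natural killer cell genes had medians of -0.03, 0.06 and -0.02, the 5 B cell genes 0.07, -0.06 and 0.02, the 5 heterophil and granulocyte genes 0.04, -0.02 and 0.04, and the 3 thrombocyte genes -0.04, 0.02 and -0.02. Within these lists IGJ, the joining chain of secreted immunoglobulin, was 0.38 in LDPS against SDPS (limma adjusted p = 1), while the B cell genes BLNK and CD40 had -0.14 and -0.12. Also under an unadjusted p of 0.05 in limma were CD3E, a T cell receptor chain, at 0.31 and GZMA, a protease of killer cells, at -0.33 in LDPR against LDPS. In LDPR against SDPS they were GZMA at -0.36, the granulocyte growth factor receptor CSF3R at -0.26 and the integrin chain ITGA4 at 0.28. The log2 summed intensity of the 9 microglia and macrophage genes with a level in every pool ran between 11.39 and 11.68 in LDPR. It ran between 11.29 and 11.55 in LDPS, and between 11.24 and 11.40 in SDPS, so the groups overlapped.

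**Figure D2:**
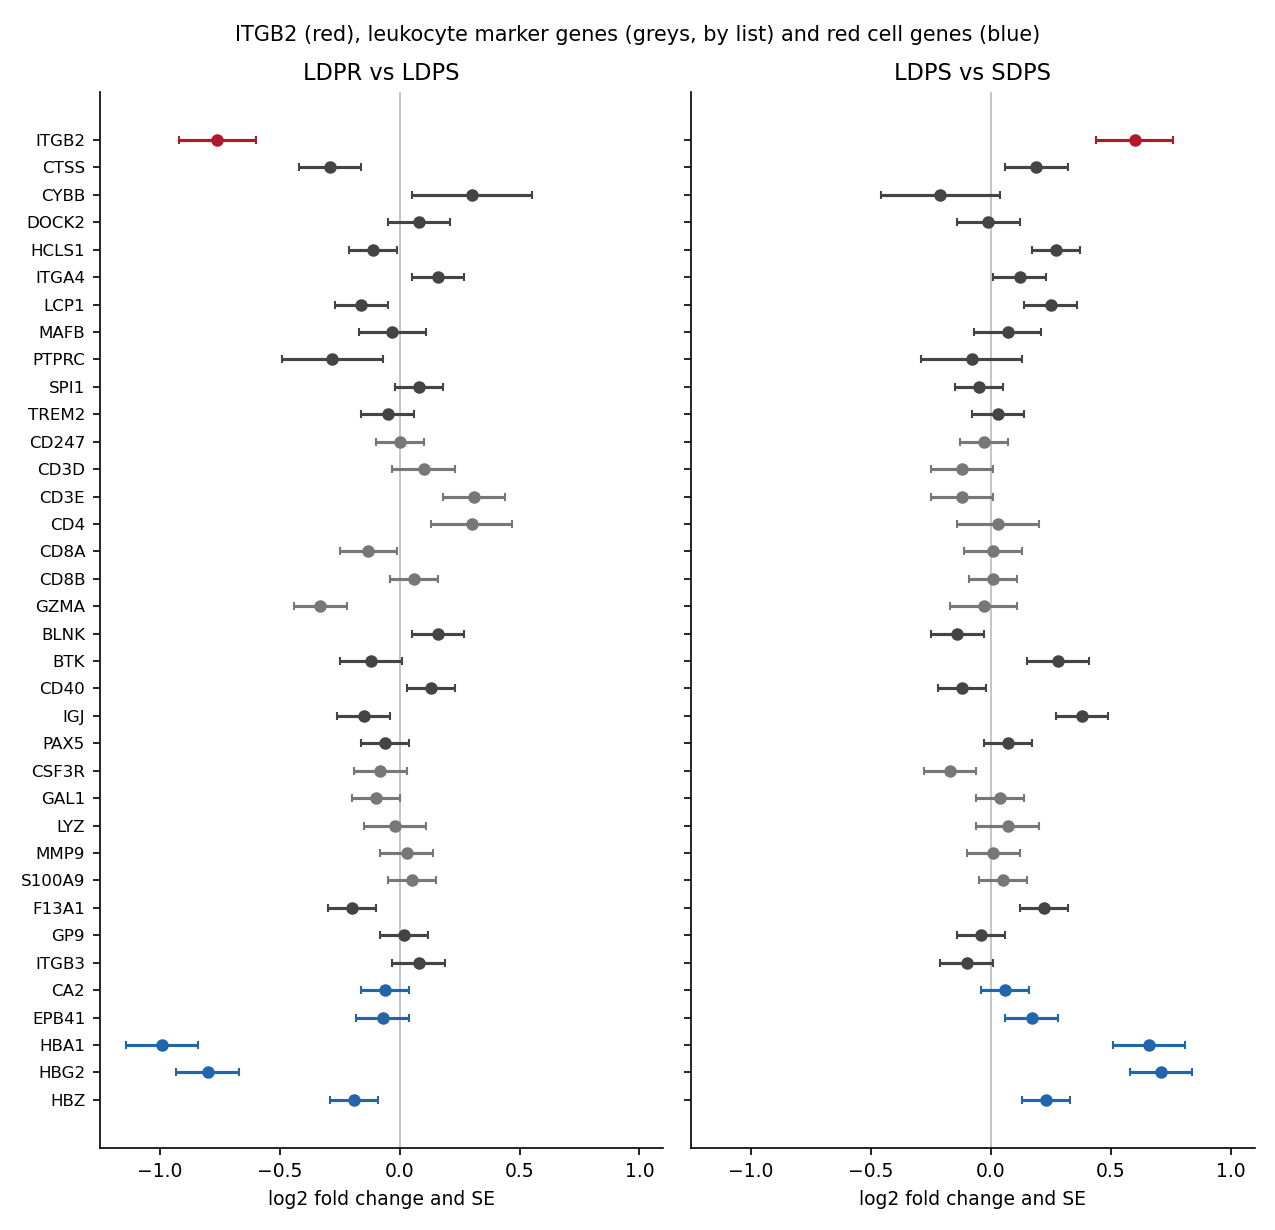
Log2 fold change and standard error (horizontal axis) of ITGB2 in red, of the tested genes of the leukocyte and thrombocyte marker lists in greys and of the tested red blood cell list in blue. ITGB2 is at -0.76 and 0.60, HBA1 at -0.99 and 0.66 and HBG2 at -0.80 and 0.71, while PTPRC is at -0.28 and -0.08.

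Complement held the lowest adjusted p of the immune probes in LDPR against LDPS. The C8 alpha-like gene, named after a chain of the complex that pierces target membranes, had levels of 8.26, 8.97, 8.95 and 8.38 in LDPR, 9.71, 9.08, 9.65 and 8.81 in LDPS, and 9.47, 8.63, 8.36 and 9.52 in SDPS. The groups overlapped in level, but the LDPR pool was the lower one on both arrays it shared with LDPS, at -0.70 and -0.43. The fitted log2 fold change was -0.60 (SE 0.12) in LDPR against LDPS with a limma adjusted p of 0.148, 0.31 (SE 0.12) in LDPS against SDPS, and -0.29 (SE 0.12) in LDPR against SDPS. CR2, a complement receptor of B cells, had levels of 6.52, 7.21, 7.24 and 6.43 in LDPR, 7.34, 7.45, 7.47 and 6.94 in LDPS, and 7.33, 7.16, 6.73 and 7.70 in SDPS. These overlapped too, and the fitted value was -0.42 (SE 0.11) in LDPR against LDPS with a limma adjusted p of 0.194. C1S, a protease of the first complement complex, was -0.26 in LDPS against SDPS, with direct ratios of -0.15 and 0.15. It was -0.12 without the array shared by LDPR pool 2 and SDPS pool 4 and -0.54 without that of the pools numbered 2 of LDPS and SDPS. In LDPR pool 2 its level was 4.95, the lowest of the 12 pools.

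The other complement probes stayed near 0. Over the 14 tested, the medians were -0.03 in LDPS against SDPS, -0.04 in LDPR against LDPS and -0.08 in LDPR against SDPS. C8B, a partner chain of C8, had -0.12, -0.06 and -0.18 in that order of comparisons. C1QA, a chain of the recognition unit that microglia make, had -0.04, -0.05 and -0.09. The 2 probes for C3, the central component, differed in sign, at 0.10 and -0.13 in LDPR against LDPS. CR1L, a regulator of complement on cell surfaces, had levels of 8.62, 8.69, 8.64 and 8.40 in LDPS and 8.80, 8.73, 9.03 and 8.69 in SDPS. Those pools did not overlap, though they met at 8.69, and it was the only one of the 104 lower in this way (0.962%, against 0.305% of all probes). Its fitted value was -0.10 (limma adjusted p = 1). None of the 104 was higher without overlap in LDPS, against 0.681% of all probes.

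Of the 2 major histocompatibility probes, BF2, a classical class I antigen-presenting molecule of the chicken, was the immune probe with the highest value in LDPR against LDPS. Its levels were 9.94, 10.37, 10.08 and 10.46 in LDPR, 9.71, 9.70, 9.87 and 9.99 in LDPS, and 10.08, 9.64, 9.92 and 9.97 in SDPS. The LDPR pools reached the highest levels but overlapped both other groups. The probe had a fitted log2 fold change of 0.34 (SE 0.09) against LDPS, with a limma adjusted p of 0.199. Its direct log2 ratios were 0.21 and 0.46. BF2 belongs to a family of similar class I genes, and the probe may read more than one. CD74, the invariant chain that guides class II molecules, had 0.11, 0.02 and 0.13 in LDPS against SDPS, LDPR against LDPS and LDPR against SDPS. The 6 tested genes of a list of antigen processing and presentation had medians of 0.01, 0.04 and 0.03, with 0 called.

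**Figure D3:**
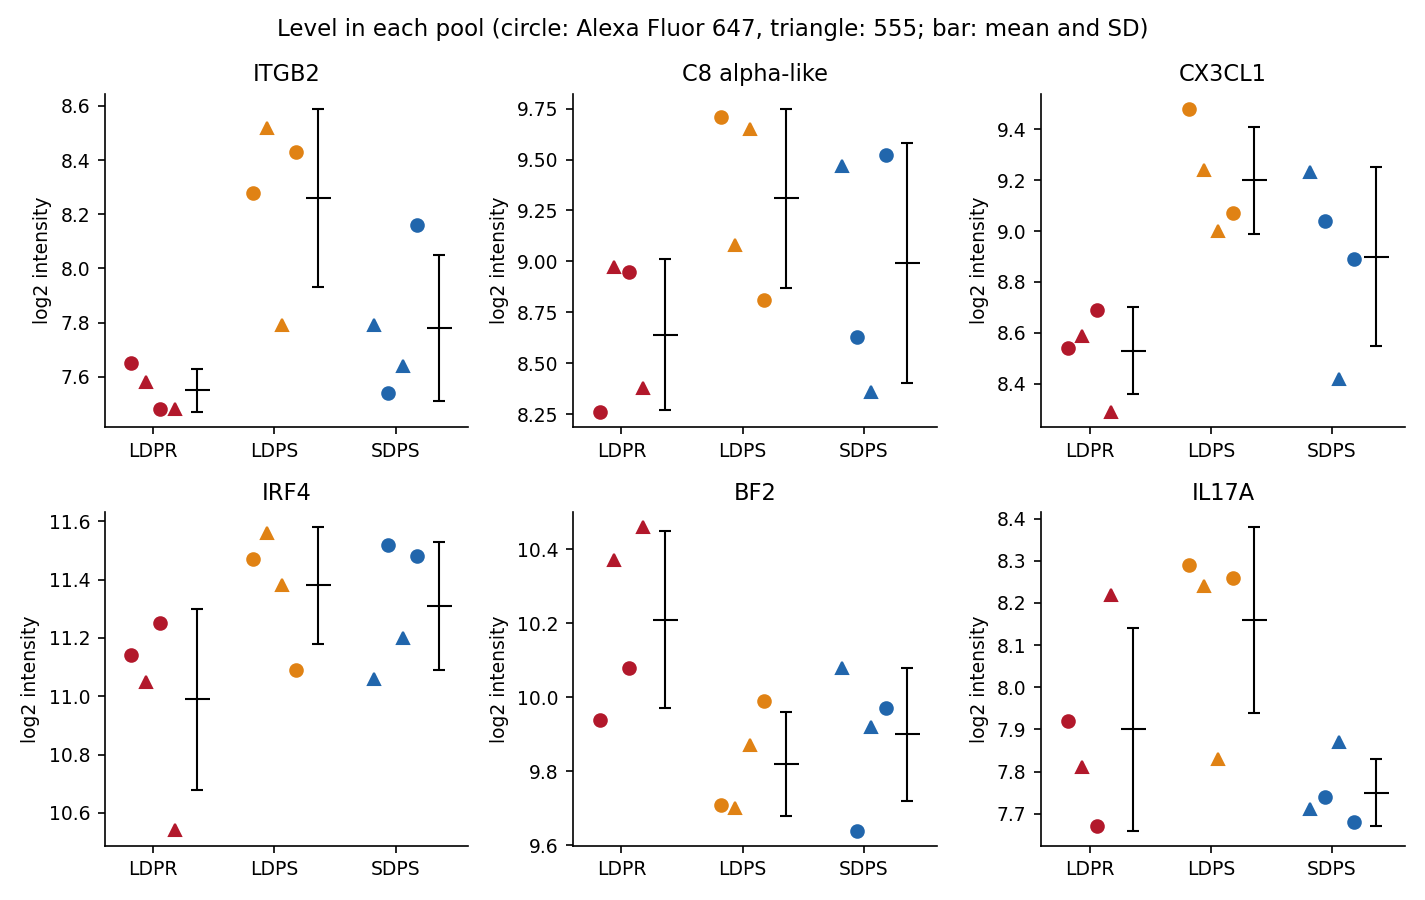
Normalised log2 intensity (vertical axis) of 6 immune probes in each of the 4 pools of LDPR, LDPS and SDPS hens, with the mean and standard deviation in black and the dye shown by the symbol. The LDPR pools lie below all LDPS pools for ITGB2 and CX3CL1 and overlap them for the other genes.

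Type I interferons had small values in one direction. The 2 probes for IFNA had -0.19 and -0.18 in LDPR against LDPS, and the one for IFNB had -0.19, none of them with an unadjusted p under 0.05 in limma. IFNB had levels of 10.94, 10.89, 10.94 and 10.70 in LDPR, 11.34, 10.95, 11.02 and 11.27 in LDPS, and 11.27, 11.27, 10.84 and 11.11 in SDPS. The LDPR pools were all below the LDPS pools by a narrow margin, and overlapped the SDPS pools. The IFNA probes had mean amplitudes of 8760 and 7720, and what they read was not tested. The chicken IFNA genes are a family of close copies, so those probes may read several. Their receptor chains had 0.05 for IFNAR1 and 0.22 for IFNAR2, and the 7 tested interferon ligands and receptors had a median of -0.18 in LDPR against LDPS, against -0.04 in LDPS against SDPS and -0.12 in LDPR against SDPS.

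Among interferon regulatory factors and interferon-induced genes, IRF4, a transcription factor of lymphocytes and macrophages, had levels of 11.14, 11.05, 11.25 and 10.54 in LDPR, 11.47, 11.56, 11.38 and 11.09 in LDPS, and 11.06, 11.52, 11.20 and 11.48 in SDPS. One LDPS pool, at 11.09, lay within the LDPR range. The fitted value was -0.39 (SE 0.09) in LDPR against LDPS, with a limma adjusted p of 0.172 and direct ratios of -0.14 and -0.55. IRF7, the factor that amplifies type I interferon production, had -0.29 (limma adjusted p = 0.339). The antiviral effector MX1 had 0.24 in LDPS against SDPS and -0.22 in LDPR against LDPS. Its direct ratios disagreed in sign in both, at -0.32 and 1.08 and at -0.50 and 0.32. Its dye effect (log2 of Alexa Fluor 647 over 555 in the same fit) was -0.73. IFIH1, a sensor of viral RNA, had -0.19 and -0.06 on its 2 probes in LDPS against SDPS. The first was -0.06 without the array shared by LDPR pool 2 and SDPS pool 4. Over the 15 probes the medians were 0.03, -0.06 and -0.02, and the 16 tested genes of an interferon and JAK-STAT signalling list, which shares a few of them, had 0.05, 0.05 and 0.04 with 0 called.

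The chemokine CX3CL1, or fractalkine, is made by neurons in mammalian brain and is read by a receptor on microglia. The brighter of its 2 probes had levels of 8.54, 8.59, 8.69 and 8.29 in LDPR, 9.48, 9.24, 9.0 and 9.07 in LDPS, and 9.23, 9.04, 8.42 and 8.89 in SDPS. All LDPR pools lay below all LDPS pools, and the SDPS pools spanned the gap. The fitted value was -0.47 (SE 0.11) in LDPR against LDPS, a linear fold change of 0.724, with a limma adjusted p of 0.166. The direct log2 ratios were -0.31 and -0.78. The fitted value was 0.30 in LDPS against SDPS and -0.17 in LDPR against SDPS. The second, dimmer probe had -0.17, -0.10 and -0.26 in those 3 comparisons, so it shared the direction in 2 of the 3.

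Of the other chemokine ligands, CCL4, which attracts monocytes and T cells, had 0.31 in LDPR against LDPS and 0.29 in LDPR against SDPS. Its levels were 13.43, 14.11, 12.74 and 13.73 in LDPR, 13.27, 12.91, 12.96 and 13.27 in LDPS, and 13.57, 13.05, 13.63 and 12.95 in SDPS. LDPR pool 2 was the highest of the 12, and without its array the values were 0.14 against LDPS and -0.05 against SDPS. The direct ratios were -0.22 and 0.46 for LDPR over LDPS and -0.21 and 1.16 for LDPR over SDPS. CCL1 had -0.35 in LDPR against SDPS (limma adjusted p = 0.494) from 5 arrays, with direct ratios of -0.46 and 0.02, and -0.22 without the array shared by LDPR pool 4 and LDPS pool 4. The 2 probes for IL8, which draws granulocytes, gave 0.21 and 0.25 in that comparison. Over the 13 tested chemokine ligands the medians were 0.03 in LDPS against SDPS, 0.09 in LDPR against LDPS and 0.08 in LDPR against SDPS. CXCL12, the ligand of CXCR4, had 0.09, 0.00 and 0.08.

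CXCR4, which guides leukocytes and migrating neurons, had levels of 7.81, 7.93, 7.81 and 8.36 in LDPR, 7.74, 7.89, 7.73 and 7.68 in LDPS, and 7.72, 7.79, 7.88 and 7.32 in SDPS. The groups overlapped. The fitted value was 0.32 (SE 0.11) in LDPR against LDPS and 0.32 (SE 0.11) in LDPR against SDPS, with limma adjusted p of 0.259 and 0.454. The direct log2 ratios against LDPS were 0.08 and 0.68 and those against SDPS were -0.07 and 0.60. CCR2, a monocyte receptor, and the CCR8-L probe had values of -0.27 and -0.40 in LDPR against LDPS (limma adjusted p = 0.28 and 0.257). The direct ratios of CCR2 were -0.32 and -0.34, while those of CCR8-L disagreed in sign, at -0.81 and 0.38, and its dye effect was -0.51 (log2 of Alexa Fluor 647 over 555 in the same fit). The 6 tested chemokine receptors had medians of 0.06 in LDPS against SDPS, -0.04 in LDPR against LDPS and 0.00 in LDPR against SDPS.

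Toll-like receptors and their adaptors, which sense microbial molecules, had values near 0. The 10 tested probes ran from -0.08 to 0.12 in LDPS against SDPS, from -0.19 to 0.19 in LDPR against LDPS and from -0.16 to 0.13 in LDPR against SDPS, and none had an unadjusted p under 0.05 in limma. In LDPR against LDPS, TLR3, a sensor of double-stranded RNA, had 0.19, TLR4, the lipopolysaccharide sensor, had 0.14, and TLR5, the flagellin sensor, had -0.18. The 15 tested genes of a toll-like receptor and NF-kB signalling list had medians of -0.04, 0.07 and -0.01, with 0 called.

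Among interleukin ligands, IL17A had levels of 7.92, 7.81, 7.67 and 8.22 in LDPR, 8.29, 8.24, 7.83 and 8.26 in LDPS, and 7.71, 7.74, 7.87 and 7.68 in SDPS. Of the LDPS pools 3 lay above every SDPS pool and the other within their range. The fitted value was 0.42 (SE 0.11) in LDPS against SDPS, a linear fold change of 1.34. The unadjusted limma p was 0.00336 and the adjusted p was 1. The direct log2 ratios were 0.58 and 0.50, also higher in LDPS. In LDPR against LDPS the fitted value was -0.22. IL2, the T cell growth factor, had fitted values of -0.46 in LDPR against LDPS and -0.42 in LDPR against SDPS (limma adjusted p = 0.225 and 0.405), from 5 arrays.

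The IL2 probe was also the only one of the 114 whose dye effect, the log2 difference of Alexa Fluor 647 over 555 in the same fit, was larger than 1 in size (0.877%, against 0.677% of all probes), at -1.17. Its levels were 5.33, 6.02 and 6.61 in 3 LDPR pools, 5.18, 6.42 and 5.90 in 3 LDPS pools, and 6.40, 5.15, 6.85 and 5.34 in the SDPS pools. The mean levels, 5.99 in LDPR, 5.84 in LDPS and 5.94 in SDPS, did not share the order of the fitted values, and without the dye term the LDPR against LDPS value was 0.13. The single direct array gave a log2 ratio of 0.71. The inflammatory cytokine IL1B had -0.20 in LDPS against SDPS, and the IL22-like probe had -0.23 (limma adjusted p = 1 for both). The IL1B value was -0.10 without the array shared by LDPS pool 1 and SDPS pool 1. The IL22-like value was -0.01 without the array shared by LDPS pool 2 and SDPS pool 2. IL6 had -0.12, -0.06 and -0.18 and IL10, an anti-inflammatory cytokine, had -0.07, 0.01 and -0.06 in LDPS against SDPS, LDPR against LDPS and LDPR against SDPS. The medians of the 19 tested ligands were 0.00, 0.06 and 0.00.

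The IL3R beta-like probe, named after the signalling chain shared by myeloid growth factor receptors, had levels of 7.87, 8.27, 6.69 and 8.17 in LDPR, 7.82, 7.46, 7.07 and 7.66 in LDPS, and 7.31, 6.84, 7.93 and 7.19 in SDPS. The levels overlapped throughout. The fitted values were 0.53 (SE 0.14) in LDPS against SDPS, 0.02 in LDPR against LDPS and 0.55 (SE 0.14) in LDPR against SDPS, with limma adjusted p of 1, 0.951 and 0.375. The direct log2 ratios were 0.52 and 0.62 for LDPS over SDPS, but -0.06 and 1.08 for LDPR over SDPS. Without the array shared by LDPS pool 1 and SDPS pool 1 the LDPS against SDPS value was 0.30.

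IL12RB2, a receptor chain for IL12, had -0.49 (SE 0.11) in LDPR against LDPS and -0.40 (SE 0.11) in LDPR against SDPS, with limma adjusted p of 0.163 and 0.411. Its levels were 7.56, 7.79, 6.27 and 7.99 in LDPR, 6.82, 7.75, 7.61 and 7.83 in LDPS, and 7.56, 7.04, 8.39 and 7.57 in SDPS. They overlapped, and the direct ratios disagreed in sign, at -1.34 and 0.16 for LDPR over LDPS and at -0.83 and 0.22 for LDPR over SDPS. The dye effect of this probe was -0.67.

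IL17RD, a member of the IL17 receptor family that also restrains fibroblast growth factor signalling, had -0.37 (SE 0.10) in LDPR against LDPS and 0.24 (SE 0.10) in LDPS against SDPS (limma adjusted p = 0.198 and 1). Its levels were 8.39, 8.62, 8.93 and 8.71 in LDPR, 8.63, 8.91, 8.99 and 9.34 in LDPS, and 8.23, 8.80, 8.42 and 8.87 in SDPS. The groups overlapped, with the highest pool in LDPS. The receptor for IL23, IL23R, had 0.30 in LDPS against SDPS and -0.28 in LDPR against LDPS. The first was 0.19 without the array shared by the pools numbered 1. The 2 chains of the IL10 receptor differed: IL10RA had 0.26 and -0.21 in those comparisons, and IL10RB had 0.03 and 0.26. In LDPR against SDPS, IL10RB had 0.29, IL20RA had -0.38 (from 5 arrays) and IL4R alpha-like had -0.33, with limma adjusted p of 0.451, 0.497 and 0.553. The IL4R alpha-like level in LDPR pool 2 was 5.50, the lowest of the 12, and without that array the value was -0.03. IL20RA was -0.14 without the array shared by LDPR pool 4 and LDPS pool 4. An IL15R alpha-like probe had 6.16, 6.20, 6.16 and 6.16 in LDPR, all below 6.71, 6.48, 6.37 and 6.43 in SDPS, and was the only one of the 104 lower without overlap in that comparison (0.962%, against 0.681% of all probes). Its fitted value was -0.21 (limma adjusted p = 0.564). None was higher without overlap in LDPR, against 0.299% of all probes.

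Over the 21 tested interleukin receptors the medians were 0.00 in LDPS against SDPS, -0.01 in LDPR against LDPS and 0.01 in LDPR against SDPS. IL1R1, the receptor for IL1, and IL6ST, the signalling chain shared by the IL6 family, stayed between -0.03 and 0.05 in all 3. The IL6ST level was 11.69 in LDPR pool 1 and 11.45 in SDPS pool 3, which shared an array. In the other pools it ran from 7.65 to 8.41, and the cause was not tested. Of the 6 remaining probes with interleukin in their names, CASP1, the protease that matures IL1B, had -0.24 in LDPR against LDPS (limma adjusted p = 0.354).

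**Figure D4:**
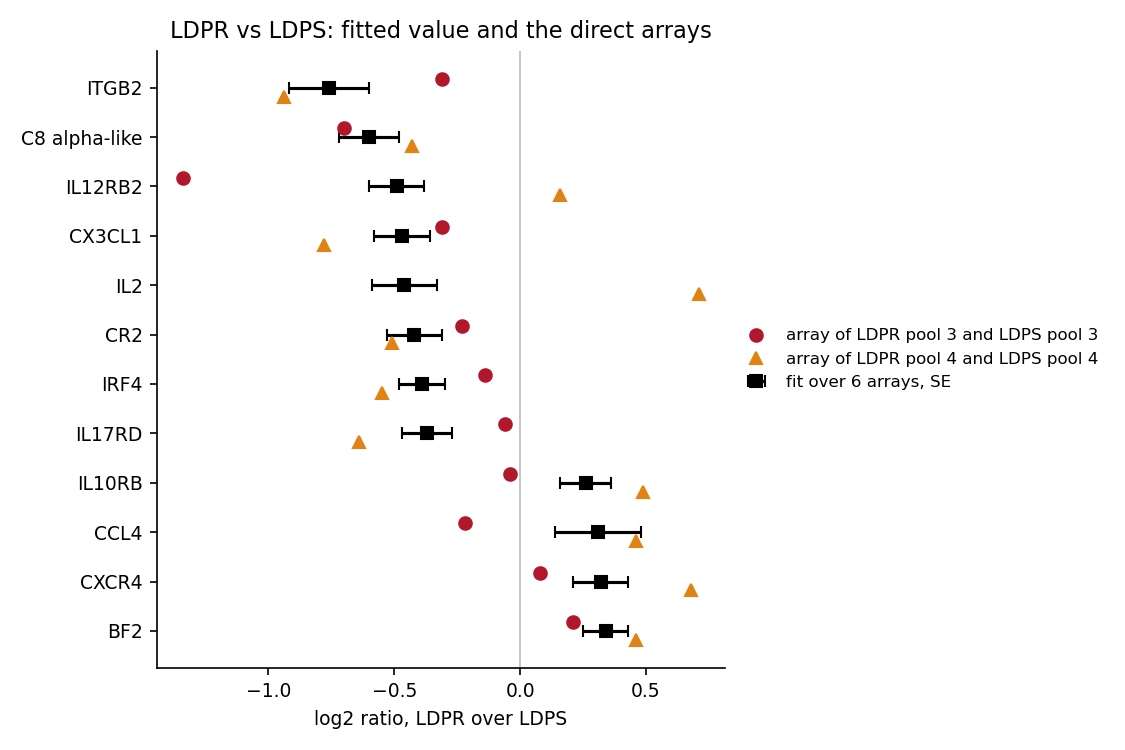
Log2 ratio of LDPR over LDPS (horizontal axis) for 12 of the immune probes with the most extreme values or an unadjusted p under 0.01. Squares with standard errors are values fitted over 6 arrays, or 5 for IL2. The other points are the ratios on each array that held a pool of both groups. Both arrays lie on the fitted side of 0 for 8 of the 12, while IL12RB2 has -1.34 and 0.16 and IL2 has a single array, at 0.71. The fit includes these arrays and the probes were chosen by it, so a shared side was favoured in advance.

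Genes that act with the immune probes were described from further lists. The 13 tested complement regulators and coagulation factors had medians of -0.01 in LDPS against SDPS, -0.02 in LDPR against LDPS and -0.07 in LDPR against SDPS, with 0 called. In that list FGA, the fibrinogen alpha chain of blood clots, had 0.33 in LDPS against SDPS and -0.43 in LDPR against LDPS (limma adjusted p = 1 and 0.227). The other fibrinogen chains had -0.05 and 0.03 for FGB and -0.01 and -0.09 for FGG. C1QTNF7, a secreted protein related to C1q, had 0.67 in LDPR against SDPS (limma adjusted p = 0.375), from 5 arrays. Its mean levels, 6.54 in LDPR and 6.67 in SDPS, did not share that direction. LDPR pool 2 had 8 against 6.72 in SDPS pool 4 on its array, while LDPR pool 1 had 6.10 against 6.14 in SDPS pool 3. The 6 tested integrins and adhesion molecules had medians of 0.05, 0.05 and 0.00 in the same order of comparisons, with 0 called. Among them ITGA6, an alpha chain of laminin receptors, had -0.44 in LDPR against LDPS (limma adjusted p = 0.242), with levels of 7.80, 7.20, 7.89 and 7.34 in LDPR and 8.40, 8.26, 7.94 and 8.14 in LDPS. All its LDPR pools lay below all its LDPS pools, the closest being 7.89 and 7.94, as was so for 1.66% of all probes.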

How the data were processed

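RNA of 12 pools was labelled with Alexa Fluor 647 or 555 by an indirect cDNA kit, per the labels' protocols, and hybridised in pairs to 6 chicken oligonucleotide arrays of 22176 spots (20460 chicken probes, 1480 empty spots, 218 human negative controls and 18 control oligonucleotides). Per the file headers, the authors measured spots in BlueFuse for Microarrays, version 3.6 and build 7145. The deposited files give a spot's intensity as a single amplitude in each channel, without a background column, and a confidence score of up to 1. Median amplitudes ran between 92.65 and 276.51. A deposited table of log2 intensities per sample, with normalisation not given in the sources used here, was an alternative.

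A spot whose confidence score fell below 0.1 was set to missing, and no background was subtracted. Loess (span 0.3 and 4 iterations, on chicken probes alone) normalised the log2 ratios of each array. A model of group with a dye intercept was then fitted by limma 3.58.1 (R 4.3.3) to probes present on at least 5 of the 6 arrays. Its p-values were two-sided and Benjamini-Hochberg adjusted over 18012 probes (2 to 3 residual and 6.64 prior degrees of freedom). The script was tested on simulated data. Levels are loess and Aquantile normalised log2 intensities, shown as means with standard deviations. Levels of different probes were not compared, since turkey RNA can mismatch chicken probes. The summed intensities of lists add probes together, so brighter probes weigh more in them. Gene names are those of the array files, 63 of the 97 that are gene symbols also being in the turkey RefSeq table (Turkey_5.1).

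Named genes were the 5 highest and 5 lowest values of each comparison, each immune probe with an unadjusted p under 0.01, and ITGB2. Others were named by role, and a few genes are not reported here. The members, lists and tests were chosen with earlier results of these data known. Pools with the same number on different arrays correlated at -0.44 to 0.267 in their deviations from the group means. Those with unlike numbers on different arrays correlated at -0.472 to 0.472. The numbers were not used as pairs. Levels carry signal shared within an array, so these correlations cannot exclude a pairing. Alternatives changed the confidence threshold, presence and dim-probe filters, normalisation, offset, dye term, path, channel model and source table, and left out each array.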

Additional observations from a re-analysis of the deposited data

Results flagged for a closer look

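Of 61 sets of 4 pools examined among the named immune probes, 3 had 1 pool far from the others (4.92%, where chance gives about 1 in 20). C1S had a level of 5.67 in SDPS pool 4, against 5.95 to 5.97 in the other SDPS pools. IFIH1 had 6.07 in LDPR pool 2, against 6.93 to 7.11 in the other LDPR pools. Those 2 pools shared an array, and LDPR pool 2 also had the lowest share of probes above the empty-spot level (79.3%). Its part in these values was not tested. IL17A had 7.83 in LDPS pool 3, against 8.24 to 8.29 in the other LDPS pools. That pool was on the array that was quantified on a different date from the rest.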

How the results depend on the processing

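The counts of immune probes moved with the dye term, the arrays used and the model of the channels, and the cause was not tested. Those at an unadjusted p under 0.05 numbered 4, 8 and 5 without the dye term in LDPS against SDPS, LDPR against LDPS and LDPR against SDPS, where the fitted counts were 8, 17 and 11 (2.03%, 6.86% and 3.41% of all probes without it, against 4.33%, 13.9% and 9.37%). On the direct arrays alone, with fewer arrays and no dye term, they numbered 4, 4 and 2 (2.51%, 2.27% and 1.15% of all probes). The F test could not be run there. With separate channels they numbered 26 in LDPR against LDPS and 25 in LDPR against SDPS (19.5% and 15.1% of all probes), and in the authors' own log2 values 5 in LDPS against SDPS (5.55%). Leaving out 1 array gave 6 to 8, 13 to 18 and 5 to 19, the last with 5 without LDPR pool 1 and SDPS pool 3, 7 without LDPR pool 2 and SDPS pool 4 and 19 without LDPS pool 2 and SDPS pool 2 (7.86%, 5.59% and 15.8% of all probes). Over all probes the ranges were 2.42% to 9.29%, 6.65% to 14.4% and 5.59% to 15.8%. No fit without an array called an immune probe.

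After adjustment in limma, 6 immune probes were called in LDPR against LDPS (beside 557 of all probes) and 3 by the F test (ITGB2, CX3CL1 and IL17A, beside 302) with separate channels, and 3 in LDPR against LDPS in the deposited table (C8 alpha-like, CX3CL1 and IRF4, beside 203 of all probes). The separate-channel fit assumes 1 correlation between the channels of a spot for all probes, estimated at 0.826. The pool numbers were not used as pairs in the main fit. With the replicate block added to separate channels, 1, 10 and 0 immune probes were called in the 3 comparisons. Among all probes 27, 1139 and 13 were (0.15%, 6.32% and 0.0722%). The F test called 7 immune probes (beside 669 of 18012). Counts at the unadjusted threshold became 28 in LDPR against LDPS and 17 in LDPR against SDPS (24.4% and 13.4% of all probes).

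Directions turned for IL2 in LDPR against LDPS without the dye term (0.13), and in LDPR against SDPS for IL4R alpha-like with the replicate block (0.05) and for CCL4 (-0.05) and ITGB2 (0.05) without the array shared by LDPR pool 2 and SDPS pool 4. Over the arrays left out, CCL4 ran between -0.05 and 0.44 there and ITGB2 between -0.32 and 0.05. No other named value changed sign in the alternatives run. The 6 arrays limit the precision, and probes near the empty-spot level hold the least information.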
